A study of Homo sapiens with 12 samples.

Results

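The β-thymosins and the core regulators of actin were followed across 2 neoplastic B-cell lines with low or high UGT2B17, an enzyme that conjugates steroids and other lipophilic molecules with glucuronic acid. The 10 genes were *TMSB4X*, *TMSB10*, *ACTB*, *ACTG1*, *PFN1*, *CFL1*, *CORO1A*, *GMFG*, *LCP1* and *LSP1*, out of 22441 genes in the MEC1 table and 17144 in the JVM2 table, and all 10 passed the filter on low counts in both lines. The set was chosen by the MEC1 libraries themselves: *TMSB4X* was selected because it is among the most abundant mRNAs and because its level was much lower in MEC1-2B17 cells, and the other 9 are actin genes and actin-binding proteins gathered around it. The MEC1 contrast of these genes is therefore given as a description without a test, while the JVM2 contrast comes from other libraries and was tested.

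RNA from 3 biological replicates of each of 4 populations was sequenced after ribosomal RNA depletion. Both lines, MEC1 and JVM2, are long established in culture and derive from human malignant B cells. MEC1-CTRL cells carried a stable shRNA against *UGT2B17* and were held in puromycin, whereas MEC1-2B17 cells had been electroporated with pcDNA6 holding the *UGT2B17* coding sequence and were held in blasticidin. JVM2-CTRL cells carried empty pcDNA6, JVM2-2B17 cells the same vector with *UGT2B17*, and both were held in blasticidin. In MEC1 the construct and the antibiotic thus cannot be told apart from the level of UGT2B17, and each population is a stable transfectant of a single line.

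Actin cycles between free monomers and filaments. β-Thymosins hold monomers in reserve, profilin recharges monomers and hands them to growing filament ends, cofilin and coronin take old filaments apart, and plastins tie filaments into bundles. In B cells this cycle shapes the cortex under the membrane, migration, and the contact that the B-cell receptor makes with an antigen-bearing cell. The genes of actin and of several of its partners are classic targets of SRF, a transcription factor whose MRTF coactivators are held back by free actin monomers, and SRF binds the CArG box.

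The bases just upstream of 3 members are shown: those of both thymosin genes, whose levels differed in opposite directions in MEC1, and of *ACTG1*, an actin gene that fell in JVM2 and holds a CArG box. They were taken from RefSeq (GRCh38.p14), cover the 250 bases before the transcription start and read 5′ to 3′ on the strand of the gene. They lie at chrX:12974860-12975109 (plus strand), chr2:84905406-84905655 (plus strand) and chr17:81512800-81513049 (minus strand), the last within the span that GENCODE gives *ACTG1*. Capitals mark a GC box (GGGCGG on either strand, neighbouring boxes sharing bases in places) in all 3 and, in *ACTG1*, also the CArG box.
TMSB4X: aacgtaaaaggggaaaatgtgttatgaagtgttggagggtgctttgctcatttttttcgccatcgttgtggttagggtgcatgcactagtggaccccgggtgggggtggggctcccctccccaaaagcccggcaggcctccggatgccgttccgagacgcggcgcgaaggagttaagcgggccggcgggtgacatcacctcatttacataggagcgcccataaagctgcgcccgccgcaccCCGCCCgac
TMSB10: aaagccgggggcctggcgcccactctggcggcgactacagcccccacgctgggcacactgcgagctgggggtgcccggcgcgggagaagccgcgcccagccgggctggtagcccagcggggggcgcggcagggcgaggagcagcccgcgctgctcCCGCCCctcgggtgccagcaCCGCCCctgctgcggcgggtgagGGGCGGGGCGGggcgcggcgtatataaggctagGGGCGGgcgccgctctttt
ACTG1: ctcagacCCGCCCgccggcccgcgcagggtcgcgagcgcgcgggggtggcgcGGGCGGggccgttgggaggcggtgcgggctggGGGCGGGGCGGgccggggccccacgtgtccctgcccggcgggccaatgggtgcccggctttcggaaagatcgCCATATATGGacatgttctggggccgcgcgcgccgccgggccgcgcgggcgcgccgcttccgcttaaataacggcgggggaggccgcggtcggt
Of the 8 members with an entry (not *ACTB* and *LSP1*), the CArG box stood only in *ACTG1*, 94 bases before the start. It was in 407 of 35116 promoters of the same length (1.16%). GC boxes were common, at 42.6% of promoters, and all 8 members had at least 1, with 5 in *TMSB10*, 4 in *ACTG1* and 1 in *TMSB4X*. The exact string TATAAA, in 10.7% of promoters on either strand, stood in *GMFG* (228 bases before the start) and *LCP1* (247 and 97 bases before it). Variants of this string were not searched, so the tatataag printed for *TMSB10* was not counted. These matches are letters in a window, and no binding was measured.

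The MEC1 libraries held 31762649 to 37744991 counts and the JVM2 libraries 8809179 to 11231330, and the common biological coefficient of variation was 4.22% in MEC1 and 6.92% in JVM2. *UGT2B17* itself was at 10.99 ± 0.691 CPM (read counts normalised to a common library size) in MEC1-CTRL and 21.1 ± 1.37 in MEC1-2B17 (SD, n = 3 each), and at 27.8 ± 1.83 in JVM2-CTRL and 38.7 ± 5.67 in JVM2-2B17, with no overlap of arms in either line (edgeR quasi-likelihood adjusted *P* = 2.0e-09 and 0.0048). The 6 B-cell markers were present in every library, and none of the 4 erythroid markers was listed in either table. Of the T-cell markers, *CD3D* was in neither table and *TRAC* made up nearly all of the sum, which ran from 19.0 to 19.3 CPM in MEC1-CTRL and from 11.4 to 12.1 in MEC1-2B17 (4 of 5 markers), and from 44.5 to 49.5 in JVM2-CTRL and 31.5 to 40.3 in JVM2-2B17 (1 of 5). The summed myeloid markers went from 2.32 to 2.76 CPM in MEC1-CTRL to 4.65 to 5.24 in MEC1-2B17 (4 of 6 in the table), and from 5.41 to 6.58 in JVM2-CTRL to 11.1 to 13.8 in JVM2-2B17 (3 of 6). The higher sum was mostly *ITGAM*, at 1.14 to 1.42 CPM in MEC1-CTRL and 3.76 to 4.07 in MEC1-2B17. In JVM2 *ITGAM* was at 4.29 to 5.62 CPM in CTRL and 10.2 to 12.1 in 2B17. Each other myeloid marker reached at most 1.47 CPM in any library. The fibroblast sum stayed at or below 1.86 CPM. The part of these markers in the results was not tested. Within JVM2-2B17, replicate 2 stood apart: 0.164% of its counts came from mitochondrially encoded genes, the lowest of all libraries, against up to 0.382% in the other JVM2-2B17 libraries, 0.561 to 0.723% in JVM2-CTRL and 0.816 to 0.886% in MEC1. Changes in JVM2 that lost or gained a call, turned or moved by over 1.5 times without this library are also given without it, and the part of the mitochondrial difference in them was not tested.

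*TMSB4X* (ENSG00000205542; chromosome X, 12975110 to 12977227, plus strand, 3 exons) encodes thymosin β4, the main monomer-sequestering peptide of blood cells. CPM were scaled within each line, and the lines are set against each other only in a joint fit. In MEC1-CTRL *TMSB4X* stood at 2985, 3039 and 3150 CPM, and in MEC1-2B17 at 1426, 1386 and 1377 CPM. The arms were far apart, with a mean of 3058 ± 84.3 CPM against 1396 ± 25.8 CPM (SD, n = 3), which is 2.19-fold lower in MEC1-2B17 (log2 fold change -1.13, SE 0.027). In JVM2-CTRL it stood at 3174, 3114 and 3069 CPM, and in JVM2-2B17 at 4555, 5563 and 4261 CPM. Here every 2B17 library lay above every CTRL library: the mean rose from 3119 ± 52.7 to 4793 ± 683 CPM, or 1.54-fold (log2 fold change 0.62, SE 0.080, edgeR quasi-likelihood adjusted *P* = 9.3e-05). Without JVM2-2B17 replicate 2, the highest of the 3, the log2 change was 0.50 (adjusted *P* = 3.1e-12). The libraries of the 2 lines thus lay on opposite sides of their controls. The MEC1 response minus the JVM2 response was -1.75 on the log2 scale (SE 0.091), a difference not tested because the MEC1 response was used to choose the gene.

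The change in MEC1 moved *TMSB4X* from rank 8 to rank 44 of 22441 genes by mean CPM, and in JVM2 it moved from rank 12 to rank 6 of 17144. *TMSB4X* alone took 0.301 to 0.314% of all counts in MEC1-CTRL, 0.138 to 0.141% in MEC1-2B17, 0.308 to 0.316% in JVM2-CTRL and 0.426 to 0.561% in JVM2-2B17. Genes within 5 Mb of it had a median log2 fold change of -0.03 over 36 genes in MEC1 and 0.17 over 32 genes in JVM2. Of these neighbours, 52.8% had an edgeR adjusted *P* below 0.05 in MEC1 and 40.6% in JVM2, beside 41.7% and 29.3% of all genes tested. Protein-coding genes with transcripts of similar length (within 2 times) had medians of 0.00 over 1170 genes and 0.09 over 1068 genes. Of the 50-base stretches in its transcript, 28.1% also occur in 5 other genes, foremost *TMSB4XP4*, so reads there may be split or discarded by the counting. That pseudogene, in which 13.3% of the stretches occur, had 61, 52 and 37 counts in MEC1-CTRL and 29, 23 and 32 in MEC1-2B17 (log2 fold change -0.72). In JVM2 it went from 77, 73 and 63 to 98, 108 and 78 counts (0.49, edgeR adjusted *P* = 0.033). *TMSB4XP6* had at most 55 counts in any library, with log2 fold changes of -0.67 between the MEC1 arms and 1.00 between the JVM2 arms (edgeR adjusted *P* = 0.0074). The MEC1 values of both are given without a test, as for the members. Whether these few counts were stray reads of *TMSB4X* was not tested, so they are no second measure of its change. The pseudogenes of members, 12 listed in MEC1 and 8 in JVM2, had at most 0.0971% of the parent's counts in MEC1 and 0.215% in JVM2.

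*TMSB10* (ENSG00000034510; chromosome 2, 84905656 to 84906671, plus strand) encodes thymosin β10, a near relative with the same monomer-binding role. In MEC1-CTRL it stood at 248, 257 and 257 CPM, and in MEC1-2B17 at 345, 339 and 345 CPM. The 2B17 arm was higher in MEC1 (254 ± 5.15 against 343 ± 3.03 CPM, log2 fold change 0.43, SE 0.034), the reverse of its paralog. In JVM2 its libraries read 2421, 2282 and 2232 CPM in CTRL and 2559, 2499 and 2428 CPM in 2B17. All 2B17 libraries were again the higher ones, but the log2 difference of 0.11 (SE 0.050, 95% interval 0.0016 to 0.22) did not pass adjustment over all genes (edgeR adjusted *P* = 0.12), and it did pass without JVM2-2B17 replicate 2 (0.11, adjusted *P* = 0.036). The gene overlaps *TRABD2A* on the other strand, which held counts worth 4.01% of its own in MEC1 and 0.0762% in JVM2.

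**Figure D1:**
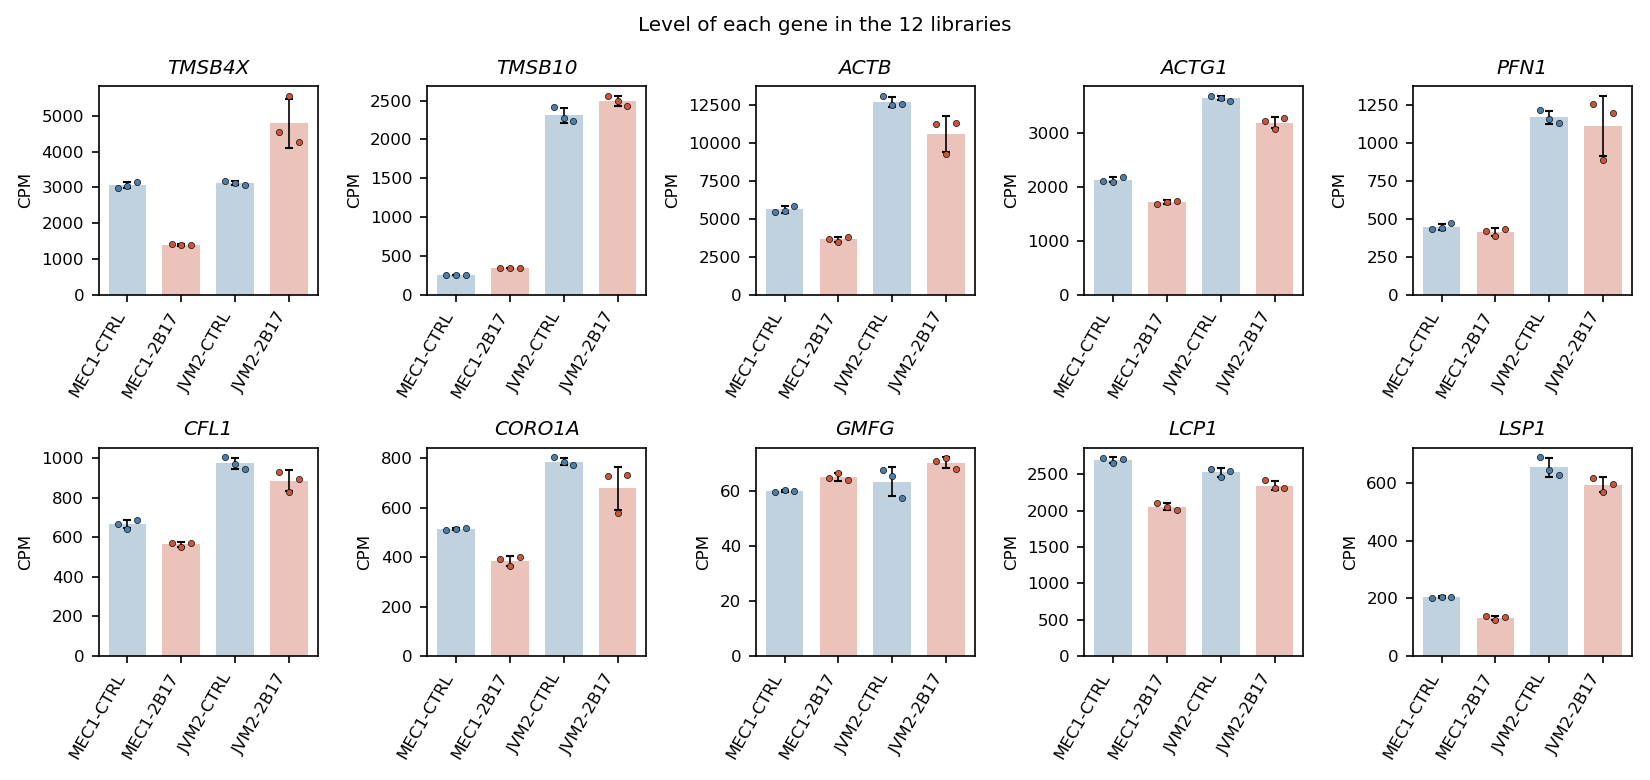
Level of each of the 10 genes in CPM (normalised read counts, vertical axis from 0) in the 4 populations. Points are single libraries (replicates 1 to 3 from left to right), bars are means and error bars are SD (n = 3). *TMSB4X* has means of 3058 and 1396 CPM in MEC1-CTRL and MEC1-2B17, and of 3119 and 4793 CPM in JVM2-CTRL and JVM2-2B17, and *TMSB10* stands at 254 CPM in MEC1-CTRL and 2312 CPM in JVM2-CTRL.

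The balance between both thymosins was therefore shifted within each library, a ratio that does not depend on the scaling between libraries. *TMSB4X* counts were 11.8 to 12.2 times those of *TMSB10* in MEC1-CTRL (12.03 ± 0.202) and 3.996 to 4.14 times in MEC1-2B17 (4.07 ± 0.071). In JVM2 the ratio ran from 1.31 to 1.37 in CTRL (1.35 ± 0.034) and from 1.75 to 2.23 in 2B17 (1.92 ± 0.265), the highest being replicate 2. The ratio was lower in every MEC1-2B17 library and higher in every JVM2-2B17 library than in the CTRL libraries of the same line.

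*ACTB* (ENSG00000075624; chromosome 7, 5526409 to 5563902, minus strand) and *ACTG1* (ENSG00000184009; chromosome 17, 81509413 to 81523847, minus strand) encode β- and γ-actin, the cytoplasmic actins that build the filaments. *ACTB* stood at 5469, 5520 and 5849 CPM in MEC1-CTRL and at 3679, 3449 and 3790 CPM in MEC1-2B17. The MEC1 arms did not overlap, with 1.54-fold less in 2B17 (log2 fold change -0.62, SE 0.031). In JVM2, *ACTB* stood at 13099, 12492 and 12556 CPM in CTRL and at 11232, 9239 and 11318 CPM in 2B17, a fall by 0.26 on the log2 scale (SE 0.068, edgeR adjusted *P* = 0.011). Replicate 2 was the lowest, and without it the fall was by 0.17 (adjusted *P* = 1.7e-05); without JVM2-CTRL replicate 1 the call was lost (-0.24, adjusted *P* = 0.058). *ACTG1* stood at 2114, 2098 and 2188 CPM in MEC1-CTRL and at 1675, 1719 and 1743 CPM in MEC1-2B17 (log2 fold change -0.32, SE 0.027). In JVM2 it went from 3680, 3655 and 3600 CPM to 3223, 3069 and 3275 CPM, a fall by 0.19 on the log2 scale (SE 0.046, edgeR adjusted *P* = 0.0076). Both actins thus fell in JVM2 and were lower in MEC1-2B17, with no overlap of arms for either gene in either line. Without JVM2-2B17 replicate 2 the fall of *ACTG1* was by 0.16 (adjusted *P* = 4.0e-04).

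The lower actin level in MEC1-2B17 was uneven between both genes. The ratio of *ACTB* to *ACTG1* counts was 2.63 ± 0.043 in MEC1-CTRL and 2.13 ± 0.104 in MEC1-2B17, with no overlap of libraries. In JVM2 it was 3.49 ± 0.071 in CTRL and 3.32 ± 0.266 in 2B17, where the ranges of 3.42 to 3.56 and 3.01 to 3.49 overlapped. The summed thymosins over the summed actins, per kb of transcript, were 1.299 ± 0.014 in MEC1-CTRL and 1.03 ± 0.038 in MEC1-2B17, and 1.12 ± 0.012 in JVM2-CTRL and 1.77 ± 0.331 in JVM2-2B17. That ratio was thus lower in each of the 3 MEC1-2B17 libraries and higher in each of the 3 JVM2-2B17 libraries, from 1.52 up to 2.14 in replicate 2.

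**Figure D2:**
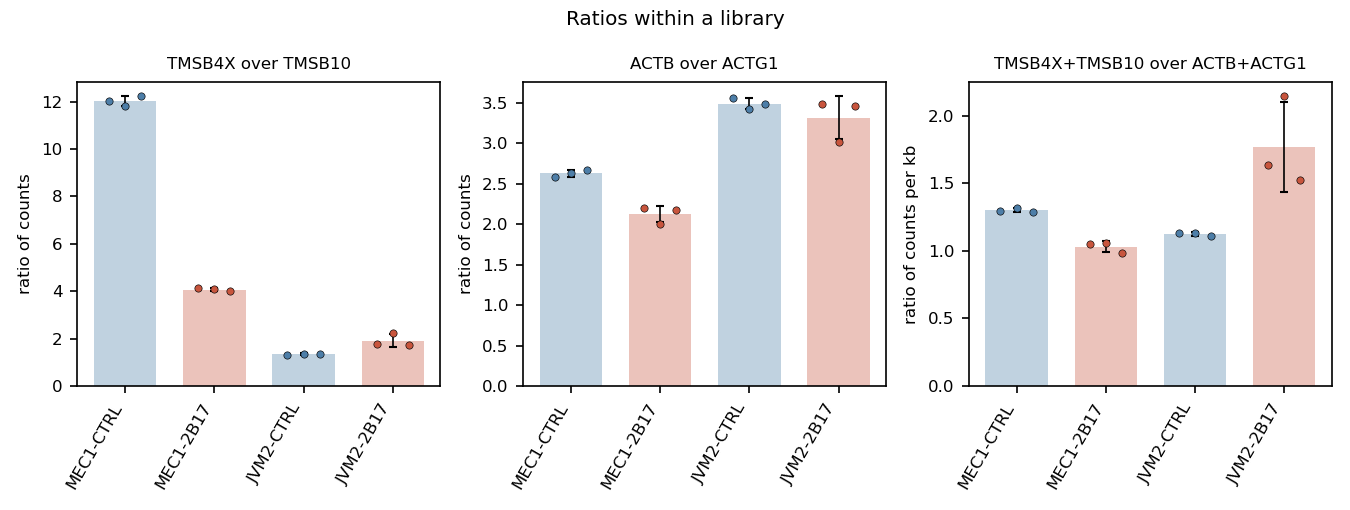
Ratios within each library, by population. The left and middle panels show the ratio of raw counts of *TMSB4X* to *TMSB10* and of *ACTB* to *ACTG1*, the right panel the ratio of both thymosins to both actins after division by transcript length (vertical axes from 0). Points are libraries, bars means, error bars SD (n = 3). The thymosin ratio is 12.03 in MEC1-CTRL and 4.07 in MEC1-2B17, while it is 1.35 in JVM2-CTRL and 1.92 in JVM2-2B17.

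*PFN1* (ENSG00000108518; chromosome 17, 4945652 to 4949061, minus strand) encodes profilin 1, which binds actin monomers and feeds them to filament ends. In MEC1 it ran from 432 to 469 CPM in CTRL and from 385 to 433 CPM in 2B17, with overlapping arms (log2 fold change -0.12, SE 0.043, or -0.06 without MEC1-2B17 replicate 2). In JVM2 it read 1217, 1158 and 1130 CPM in CTRL and 1256, 890 and 1196 CPM in 2B17, so that replicate 2 was the lowest and the other 2B17 libraries lay among or above the controls. The log2 difference of -0.07 (SE 0.10, 95% interval -0.29 to 0.15, edgeR adjusted *P* = 0.65) turned to 0.07 without that library (adjusted *P* = 0.24). Of its 50-base stretches, 14.5% are shared with *PFN1P1*.

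*CFL1* (ENSG00000172757; chromosome 11, 65823022 to 65862026, minus strand) encodes cofilin 1, which severs aged filaments. It ran from 644 to 685 CPM in MEC1-CTRL and from 549 to 572 CPM in MEC1-2B17 (log2 fold change -0.24, SE 0.033), and from 945 to 1002 CPM in JVM2-CTRL and from 826 to 931 CPM in JVM2-2B17. The JVM2 arms did not overlap, yet the log2 difference of -0.14 (95% interval -0.26 to -0.01) did not pass adjustment (edgeR adjusted *P* = 0.092), and it was -0.09 without JVM2-2B17 replicate 2 (adjusted *P* = 0.13). Its span overlaps *MUS81* and *SNX32*, whose counts came to 10.6% of its own in MEC1 and 4.84% in JVM2.

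*CORO1A* (ENSG00000102879; chromosome 16, 30182827 to 30189076, plus strand) encodes coronin 1A, a leukocyte protein that aids filament turnover and branch removal. It stood at 511, 513 and 516 CPM in MEC1-CTRL and at 392, 363 and 401 CPM in MEC1-2B17 (log2 fold change -0.41, SE 0.037). In JVM2 it went from 803, 784 and 772 CPM to 726, 579 and 731 CPM, lower in all 2B17 libraries and lowest in replicate 2. The JVM2 difference of -0.21 on the log2 scale (SE 0.080, 95% interval -0.38 to -0.04, edgeR adjusted *P* = 0.064) became -0.11 without that library (adjusted *P* = 0.064), and it passed the threshold when libraries were scaled by size only (-0.22, adjusted *P* = 0.047). *GMFG* (ENSG00000130755; chromosome 19, 39328353 to 39342372, minus strand) encodes glia maturation factor γ, which removes branches made by the Arp2/3 complex. It was the least abundant member, at 59.7 to 60.2 CPM in MEC1-CTRL and 63.9 to 66.5 CPM in MEC1-2B17 (log2 fold change 0.12, SE 0.039), and at 57.4 to 67.5 CPM in JVM2-CTRL and 68.0 to 71.7 CPM in JVM2-2B17 (0.15, 95% interval -0.0097 to 0.30, edgeR adjusted *P* = 0.15). Without JVM2-CTRL replicate 3, the lowest library, the JVM2 difference of *GMFG* was 0.09 (adjusted *P* = 0.46). *GMFG* and *TMSB10* were the members with the higher mean in 2B17 cells of both lines.

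*LCP1* (ENSG00000136167; chromosome 13, 46125920 to 46211871, minus strand) encodes L-plastin, the bundling protein of leukocytes. It stood at 2721, 2652 and 2706 CPM in MEC1-CTRL and at 2102, 2050 and 2008 CPM in MEC1-2B17 (log2 fold change -0.39, SE 0.025), and at 2568, 2459 and 2542 CPM in JVM2-CTRL and 2417, 2303 and 2308 CPM in JVM2-2B17. The JVM2 libraries again did not overlap, with a difference of -0.11 (95% interval -0.21 to -0.0039, edgeR adjusted *P* = 0.11). *LSP1* (ENSG00000130592; chromosome 11, 1850904 to 1892267, plus strand) encodes lymphocyte-specific protein 1, an F-actin binder of leukocytes. It stood at 200, 204 and 206 CPM in MEC1-CTRL and at 138, 124 and 136 CPM in MEC1-2B17, 1.53-fold lower (log2 fold change -0.62, SE 0.041). In JVM2 it ran from 626 to 688 CPM in CTRL and from 567 to 618 CPM in 2B17, a difference of -0.14 (95% interval -0.26 to -0.01, edgeR adjusted *P* = 0.094). In MEC1 *LSP1* and *ACTB* thus stood equally far below their controls on the log2 scale.

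In MEC1, 8 of the 10 members were lower and 2 higher in 2B17 cells, and 9 had arms that did not overlap. Across the line, 41.7% of the 16581 genes tested were past an edgeR adjusted *P* of 0.05 (20.0% higher and 21.6% lower), and the arms of 50.1% did not overlap. Nothing is read from the MEC1 counts, since that contrast chose the genes. In JVM2, 3 of the 10 passed, namely *TMSB4X* (higher), *ACTB* and *ACTG1* (lower), and 9 had arms that did not overlap. The background there was 29.3% of 13021 genes past the threshold (14.1% higher and 15.3% lower), so 3 of 10 is near the share among all genes, and 45.2% of genes had arms that did not overlap. The median log2 fold change of the members was -0.35 in MEC1 and -0.12 in JVM2, beside medians of 0.00 over all genes tested in each line. All 10 members together took 1.55 to 1.60% of counts in MEC1-CTRL and 1.04 to 1.09% in MEC1-2B17, and 2.77 to 2.86% in JVM2-CTRL and 2.58 to 2.71% in JVM2-2B17. In bulk RNA, fewer cells with a transcript and less of it per cell cannot be told apart.

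**Figure D3:**
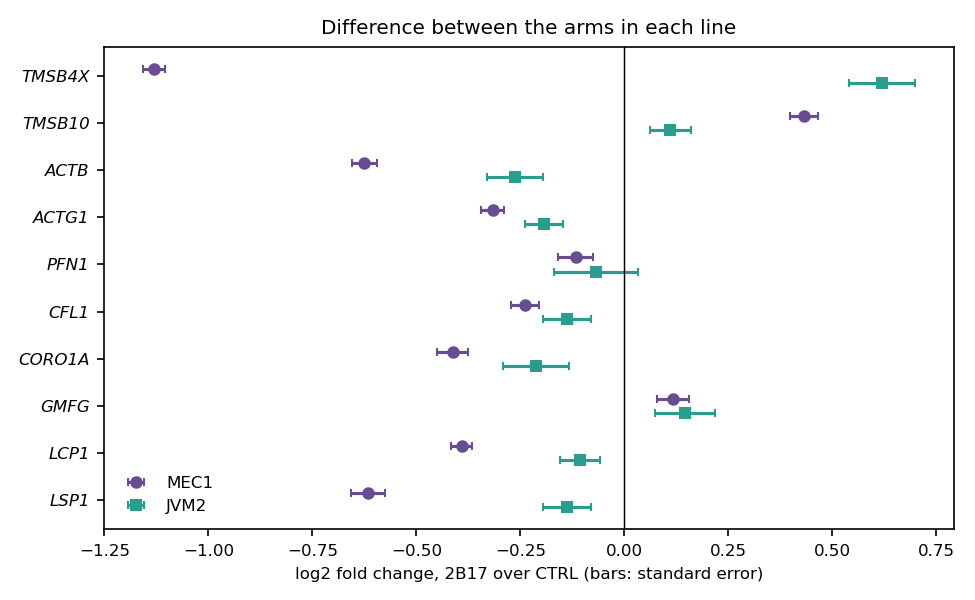
Log2 fold change of 2B17 over CTRL cells for each of the 10 genes in MEC1 (circles) and JVM2 (squares), from the edgeR fit of each line. Horizontal bars are standard errors and the vertical line marks no difference. *TMSB4X* lies at -1.13 in MEC1 and 0.62 in JVM2, and it is the only member with fitted changes of opposite sign; *PFN1* in JVM2 also changes sign without JVM2-2B17 replicate 2.

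Set side by side, 9 of the 10 members had the same sign in both lines, *PFN1* only while JVM2-2B17 replicate 2 was included. This is a description: the MEC1 signs come from the contrast that chose the set, and 3 of the 10 changes passed in JVM2. The share of all genes with the same sign in both lines was not counted. The MEC1 response minus the JVM2 response was 0.33 (SE 0.057) for *TMSB10*, -0.36 (SE 0.077) for *ACTB*, -0.12 (SE 0.050) for *ACTG1*, -0.28 (SE 0.051) for *LCP1* and -0.47 (SE 0.073) for *LSP1*. It lay from -0.20 (SE 0.090, *CORO1A*) to -0.02 (SE 0.077, *GMFG*) for *CORO1A*, *CFL1*, *PFN1* and *GMFG*. Most members were thus further below their control in MEC1 than in JVM2, and none of these differences was tested.

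The CTRL cells of both lines differed in most genes, these among them. In an edgeR fit of all 12 libraries over 15130 genes, 78.3% of all genes and 9 of the 10 members differed between MEC1-CTRL and JVM2-CTRL. So 9 of 10 is near the share among all genes. All 9 were lower in MEC1-CTRL, while the median log2 difference over all genes, MEC1-CTRL minus JVM2-CTRL, was 0.04. *TMSB10* was 10.2-fold lower (log2 difference -3.36, adjusted *P* = 3.5e-23), *LSP1* 3.62-fold (-1.85, adjusted *P* = 8.4e-18), *PFN1* 2.94-fold (-1.56, adjusted *P* = 4.6e-13), *ACTB* 2.55-fold (-1.35, adjusted *P* = 4.5e-15) and *ACTG1* 1.92-fold (-0.94, adjusted *P* = 1.1e-15). *CORO1A* (-0.79) and *CFL1* (-0.72) were lower too (edgeR adjusted *P* = 4.3e-10 and 9.4e-12). Scaling by library size only moved the median of all genes by 0.16 on the log2 scale: *TMSB4X* then went from -0.20 (adjusted *P* = 0.0081) to -0.04 (0.61), *GMFG* from -0.25 (3.3e-04) to -0.09 (0.14), and *LCP1* from -0.08 (0.061) to 0.09 (0.022), while the other 7 stayed lower in MEC1-CTRL. Line, construct, antibiotic and depth differ together in this comparison and cannot be told apart.

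Levels between genes were compared as CPM per kb of the canonical transcript. In MEC1-CTRL *TMSB4X* led with 4917 CPM per kb, ahead of *ACTB* (3097), *ACTG1* (1112) and *LCP1* (739). *PFN1* (555), *TMSB10* (551) and *CFL1* (535) followed with overlapping libraries, and *CORO1A* (316), *LSP1* (128) and *GMFG* (97.7) came last. In JVM2-CTRL *ACTB* led with 7017 CPM per kb, *TMSB4X* (5015) and *TMSB10* (5014) were level and overlapped, and *ACTG1* (1899), *PFN1* (1448), *CFL1* (781), *LCP1* (693), *CORO1A* (484), *LSP1* (412) and *GMFG* (103) followed without overlap of neighbours. By this measure JVM2 cells held both thymosins at like levels, while *TMSB4X* was the dominant thymosin mRNA of MEC1. Of the 50-base stretches, 28.1% in *TMSB4X* and 2.43% in *TMSB10* also occur in other genes, and the levels were not corrected for this. In MEC1-2B17 *TMSB4X* (2245) was still ahead of *ACTB* (2009), *TMSB10* (744) stood above *LCP1* (564) and *GMFG* (106) above *LSP1* (83.7), all without overlap of neighbours. In JVM2-2B17 *TMSB4X* (7706) had passed *ACTB* (5848), which overlapped *TMSB10* (5413).

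The genes most like *TMSB4X* over the 12 libraries were looked for among 5326 well-expressed genes, by the root mean square difference of their log2 CPM after each gene was centred on its own mean. The 5 nearest were *RGS3* (0.18), *GPATCH11* (0.19), *AHR* (0.19), *TLR7* (0.23) and *LBH* (0.25). All but *LBH* had the signs of *TMSB4X* in both lines, with log2 fold changes of -0.92 and 0.35 for *RGS3*, -0.66 and 0.52 for *GPATCH11*, -0.81 and 0.46 for *AHR*, and -1.45 and 0.56 for *TLR7*; *LBH* was at -1.06 and -0.02. *AHR* encodes the aryl hydrocarbon receptor, a ligand-activated transcription factor, and *TLR7* the endosomal sensor of single-stranded RNA. No member was as near: *ACTG1* was the closest at 0.42 and *TMSB10* the farthest at 1.21. These points share libraries, depth and the line difference, and the likeness is a description. The 5 genes were picked for likeness over these same libraries, so their shared signs largely follow from the choice.

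The rest of the actin machinery was taken from a list of 118 symbols in 9 role groups, none of them a member. In MEC1, 113 were tested, of which 17 rose and 56 fell, so 64.6% passed where 41.7% of all genes did. Their median log2 fold change was -0.12. In JVM2, 109 were tested, of which 14 rose and 27 fell, 37.6% against 29.3% of all genes, with a median of -0.08. The JVM2 share came closer to that of all genes when a control library was left out: without JVM2-CTRL replicate 1 it was 24 genes (22.0% against 22.2% of all genes), without replicate 2 it was 26 (23.9% against 21.0%) and without replicate 3 it was 23 (21.1% against 20.2%). Without JVM2-2B17 replicate 2 it was 43 (39.4% against 34.1%). The list and groups were chosen with earlier results of these data known, and the shares are descriptions. The counts by role group that follow stand beside the shares of all genes, 41.7% in MEC1 and 29.3% in JVM2.

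The Arp2/3 complex, which starts new filaments as branches on old ones, was the group with all of its genes past the threshold in MEC1: 8 of 9 subunit genes fell and 1 rose, with a median log2 fold change of -0.19. In JVM2 only *ARPC3* passed, and the median was 0.04. *ARPC5L* went from 250, 249 and 235 CPM in MEC1-CTRL to 157, 152 and 151 CPM in MEC1-2B17 (log2 fold change -0.67, edgeR adjusted *P* = 4.2e-11), whereas in JVM2 it was at 0.01 (adjusted *P* = 0.92) and at -0.08 without JVM2-2B17 replicate 2. The response of *ARPC5L* differed between the lines by -0.68 (interaction term, adjusted *P* = 6.5e-06). *ARPC3* fell in MEC1 (-0.13, adjusted *P* = 0.0064) and rose in JVM2 (0.19, adjusted *P* = 0.016), and its response differed by -0.32 (adjusted *P* = 7.1e-04). The JVM2 call of *ARPC3* was lost without any of the 3 JVM2-CTRL replicates or without JVM2-2B17 replicate 1 (adjusted *P* from 0.051 to 0.069). Among the factors that switch the complex on, 4 of 11 passed in MEC1 (36.4%, against 41.7% of all genes) and 5 of 11 in JVM2 (45.5%, against 29.3%). *CYFIP1*, a subunit of the WAVE complex, rose from 24.2 ± 0.868 to 43.96 ± 1.13 CPM in MEC1 (0.86, edgeR adjusted *P* = 5.9e-11) and was at 0.02 in JVM2 (adjusted *P* = 0.80), a difference of 0.84 (adjusted *P* = 1.2e-08). *WASF1*, a gene of 1 of the WAVE proteins, fell from 11.3 ± 0.056 to 5.05 ± 1.60 CPM in JVM2 (-1.14, edgeR adjusted *P* = 5.1e-04). It was at 0.07 in MEC1 (adjusted *P* = 0.67), a difference of 1.21 (adjusted *P* = 1.6e-04). *WASF2*, another WAVE gene named here only for its higher level, stood at 143, 132 and 145 CPM in JVM2-CTRL. In JVM2-2B17 it stood at 114, 77.6 and 112 CPM.

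Of the other handlers of actin monomers, 5 of 10 fell and 2 rose in MEC1, and 1 of 10 fell in JVM2. *PFN2*, another profilin gene, rose in MEC1 from 79.3 ± 0.910 to 102 ± 1.26 CPM (0.36, edgeR adjusted *P* = 6.1e-08), while *PFN1* in the same cells was at -0.12; in JVM2 *PFN2* was at 0.11 (adjusted *P* = 0.17), and its responses differed by 0.25 (adjusted *P* = 0.0078). *WIPF1*, a partner of the WASP protein that also binds actin, fell by 0.21 on the log2 scale in MEC1 (adjusted *P* = 4.0e-05) and by 0.32 in JVM2 cells (adjusted *P* = 0.022), and the JVM2 call was lost without JVM2-CTRL replicate 1 or 3 (adjusted *P* = 0.062 and 0.11). Without JVM2-2B17 replicate 2 the fall of *WIPF1* in JVM2 was by 0.20 (adjusted *P* = 0.0062). Among the formins and Ena/VASP proteins, which lengthen unbranched filaments, 7 of 11 fell and 1 rose in MEC1, and 4 of 9 fell and 1 rose in JVM2. *DIAPH1* fell from 124 ± 6.77 to 102 ± 0.822 CPM in MEC1 (-0.29, edgeR adjusted *P* = 4.8e-06) and from 133 ± 2.46 to 95.8 ± 14.4 CPM in JVM2 (-0.47, adjusted *P* = 0.0020). *FMNL2* fell in MEC1 (-0.34, adjusted *P* = 1.3e-05) and was not in the JVM2 table.

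Of the genes that cap or sever filaments, with their kinases and phosphatases, 9 of 18 fell and 3 rose in MEC1, and 3 of 17 fell and 3 rose in JVM2. *WDR1*, which helps cofilin take filaments apart, fell from 270 ± 9.34 to 196 ± 1.90 CPM in MEC1 (-0.46, edgeR adjusted *P* = 5.3e-09) and by less in JVM2 (-0.17, adjusted *P* = 0.027), with a difference between responses of -0.28 (adjusted *P* = 0.0015). The JVM2 call of *WDR1* was lost without any of the 3 JVM2-CTRL replicates or without JVM2-2B17 replicate 3 (adjusted *P* from 0.052 to 0.092). *CAPG*, a capping protein of leukocytes, rose in both lines, from 11.5 ± 0.724 to 14.4 ± 0.775 CPM in MEC1 (0.33, adjusted *P* = 0.0010) and from 26.1 ± 1.76 to 40.0 ± 0.428 CPM in JVM2 (0.62, adjusted *P* = 9.2e-05). Among the bundling and linking proteins, 5 of 16 fell and 5 rose in MEC1, while 8 of 16 fell in JVM2. *FSCN1*, the bundling protein fascin, rose from 9.99 ± 1.73 to 19.9 ± 1.304 CPM in MEC1 (1.00, adjusted *P* = 3.8e-08) and was at -0.14 in JVM2 (adjusted *P* = 0.15; -0.06 without JVM2-2B17 replicate 2), where its level was 261 ± 7.08 CPM in CTRL and 237 ± 23.1 CPM in 2B17.

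**Figure D4:**
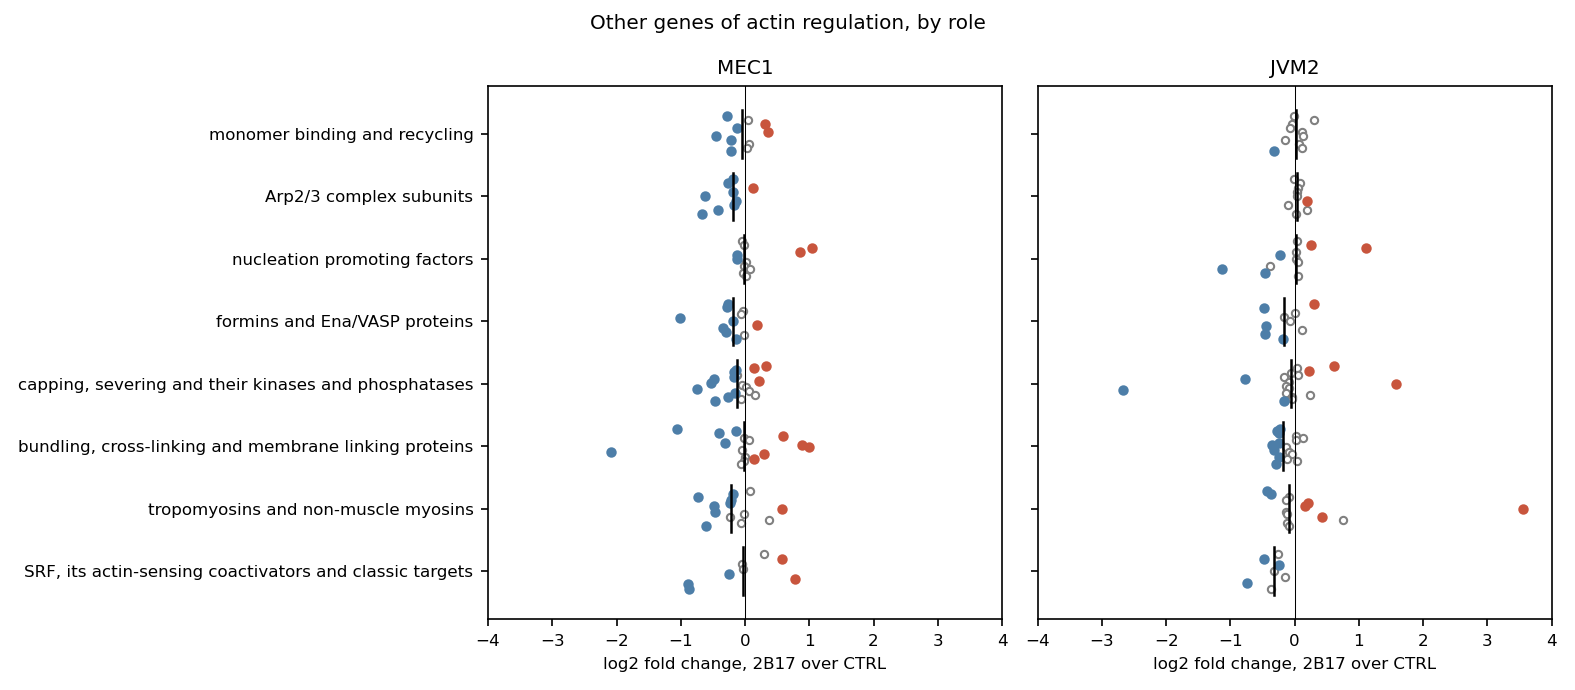
Log2 fold change of 2B17 over CTRL cells for the other genes of actin regulation in 8 of the role groups, in MEC1 (left) and JVM2 (right). Each point is a gene, filled where the adjusted *P* was below 0.05 (red higher, blue lower) and open otherwise, and vertical bars are group medians. In MEC1 all 9 Arp2/3 subunit genes are filled and 8 lie below 0, while in JVM2 1 is filled; the JVM2 point at 3.55 is *MYO1F*, whose JVM2-CTRL libraries held at most 3 counts each, so its fitted value is no bound.

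The non-muscle myosins and tropomyosins, which pull on filaments or coat them, had 7 of 13 genes lower and 1 higher in MEC1, and 2 lower and 4 higher in JVM2. *MYL12A*, a myosin light chain, fell from 172 ± 5.36 to 103 ± 3.64 CPM in MEC1 (-0.74, edgeR adjusted *P* = 9.5e-12) and was at -0.08 in JVM2 (adjusted *P* = 0.31), with a difference of -0.65 (adjusted *P* = 4.9e-07). *MYH10*, a non-muscle myosin heavy chain, fell in JVM2 from 124 ± 10.2 to 92.8 ± 1.87 CPM (-0.42, adjusted *P* = 5.1e-04) and was at 0.08 in MEC1 (adjusted *P* = 0.30). Among SRF, its coactivators and classic targets, 3 of 8 fell and 2 rose in MEC1, and 3 of 7 fell in JVM2. *VCL*, which encodes the adhesion protein vinculin, fell in both lines, from 69.0 ± 3.67 to 37.4 ± 1.24 CPM in MEC1 (-0.88, edgeR adjusted *P* = 3.0e-11) and from 28.3 ± 0.662 to 16.99 ± 1.18 CPM in JVM2 (-0.74, adjusted *P* = 5.6e-05), and its responses were not shown to differ (-0.13, SE 0.098, adjusted *P* = 0.32).

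Of the 109 listed genes tested in both lines, 27 passed in both, 3 of them higher and 14 lower in both, and 25 passed in neither. The remaining 10 that passed in both went opposite ways, 3 up in MEC1 and down in JVM2 and 7 the reverse. The like shares over all genes tested in both lines were not counted, so nothing is read from these counts. Those up in both were *CAPG*, *CTTN* and *MYO1F*, the last 2 of them named here after their values were seen. By the interaction of line and arm, the responses of 52 of 112 genes differed between the lines (46.4%, against 32.0% of the 15130 genes tested), 30 of them with the lower response in MEC1.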

How the data were processed

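The authors extracted RNA from 12 cultures, 3 biological replicates of each of 4 populations, depleted ribosomal RNA and sequenced paired ends. They trimmed reads with Trimmomatic, aligned them to hg38 with TopHat2 2.0.14 and counted them with HTSeq in the MUGQIC pipeline. The strand setting, the annotation release and the sequencing site of each sample are not given in the sources used here. For each line the authors deposited a table of raw read counts per Ensembl gene, which alone were used. The tables also hold the authors' fold changes, mean log2 CPM and *P*-values from edgeR and DESeq2, and 12 columns of rounded normalized values, none of them used here.

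Each line was fitted on its own (edgeR 4.0.16 in R 4.3.3, TMM scaling, filterByExpr set to a count of 10 and a total of 15, quasi-likelihood F-test), 2B17 against CTRL. Benjamini-Hochberg adjustment ran over every gene in the fit, and an adjusted *P* below 0.05 was called. Standard errors were derived from the F statistic, and 95% intervals from the t distribution with the fit's degrees of freedom. A joint fit of the 12 libraries over genes in both tables gave the interaction of line and arm and the difference between CTRL cells. The fits were tested on simulated data first. For *UGT2B17* alone, the exact two-sided permutation test of CPM gave 0.1 in each line, the smallest value that 3 against 3 allows. Libraries held 8809179 to 37744991 counts. Intervals and *P*-values measure the spread between these replicates.

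The members, the list of actin genes and its role groups were chosen with earlier results of these data known. Named from that list were, per role group and line, the called gene with the largest absolute change among those averaging 3 or more in log2 CPM. A gene and a role group of the list are not reported here. The 5 genes nearest to *TMSB4X* averaged 5 or more in log2 CPM in both lines. Positions and canonical transcripts came from GENCODE v44 and promoters from RefSeq (8 of 10 members matched). The alternatives were RLE scaling, library size only, scaling without the members, DESeq2 1.42.0, each replicate left out, the replicate number as a block, and either no filter or a minimum of 10 counts per library.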

Additional observations from a re-analysis of the deposited data

Results flagged for a closer look

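The responses of 11 genes, MEC1 minus JVM2 on the log2 scale, set the lines apart. For *TMSB4X* the value was -1.75: every MEC1-2B17 library lay below its controls and every JVM2-2B17 library above them, and the difference itself was not tested, since the MEC1 response chose the gene. The others were found by the interaction term of the edgeR fit of all 12 libraries. The response was higher in MEC1 for *WASF1* (1.21), *FSCN1* (1.14), *CYFIP1* (0.84), *MYH10* (0.50) and *PFN2* (0.25). It was lower in MEC1 for *ARPC5L* (-0.68), *MYL12A* (-0.65), *ARPC3* (-0.32), *CAPG* (-0.28) and *WDR1* (-0.28). Their adjusted *P* ran from 1.2e-08 (*CYFIP1*) to 0.039 (*CAPG*). Only in MEC1 did the arms carry unlike constructs under unlike antibiotics, and this cannot be told apart from a difference between the lines.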

How the results depend on the processing

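Of the counts of genes passing the threshold, 104 of 108 recomputed values stayed within 1.5 times the count of the main fit. These include the members in MEC1, whose count is not given since that contrast chose the genes. Members passing in JVM2 were 3 of 10 (29.3% of all genes), and 4 of 10 with library size only (*CORO1A* added, 29.2% of all genes). Leaving out each library in turn gave 2 to 4 members in JVM2 and 9 to 10 between the CTRL cells. It gave 23 to 43 listed actin genes in JVM2 (41 with all libraries), 67 to 73 in MEC1 and 48 to 59 with a different response. Of all genes, 20.2 to 34.1% passed in JVM2 and 35.3 to 39.0% in MEC1 over the same fits. With all libraries, 78.3% of all genes differed between the CTRL cells and 32.0% in their response. The JVM2 count of listed genes was 24, 26 and 23 without JVM2-CTRL replicates 1, 2 and 3, and the cause was not tested. With the replicate block, 7 of 10 members passed in JVM2 (2 higher, 5 lower), adding *TMSB10*, *CFL1*, *CORO1A* and *LCP1*, where 32.5% of all genes passed. The block also gave 74 listed genes in MEC1 (65.5%, against 41.6% of all genes) and 48 of 109 in JVM2. Same-numbered libraries were not shown to be paired: their deviations correlated at -0.0353, -0.00341 and 0.0385 in MEC1 and 0.0729, 0.107 and -0.003 in JVM2, and not every library correlated best with its own number.

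Signs turned in 3 cases, all with changes that did not pass: *PFN1* in JVM2 (0.0704 without JVM2-2B17 replicate 2, range -0.16 to 0.0704), *ARPC5L* in JVM2 (-0.0785 without the same library, range -0.0785 to 0.0619) and *WASF1* in MEC1 (-0.0104 without MEC1-CTRL replicate 1, range -0.0104 to 0.14). The causes were not tested. Of the members' other recomputed changes, 251 kept their direction and, in JVM2, their call. In JVM2, 7 passed that had not, and 1 (*ACTB*, without JVM2-CTRL replicate 1) no longer did. Calls of members in MEC1 were not compared, since that contrast chose the genes. With each library left out, *TMSB4X* ranged from -1.15 to -1.11 in MEC1 and from 0.50 to 0.70 in JVM2. Scalings moved the median of all genes by at most 0.01 on the log2 scale within a line. With library size only, the 41 listed genes in JVM2 split into 11 higher and 30 lower. Without JVM2-2B17 replicate 2 the JVM2 standard errors went from 0.080 to 0.036 for *TMSB4X* and from 0.068 to 0.028 for *ACTB*.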
